A study of Bos taurus with 2 samples.

Results

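The antioxidant and glutathione genes described here are 34 genes that act in the NRF2 response, in the synthesis and use of glutathione, in the thioredoxin and peroxiredoxin systems, in the removal of superoxide and hydrogen peroxide, and in the supply of NADPH. They were measured in the longissimus thoracis (LT) muscle of Japanese Black cattle fetuses whose dams received low nutrition (LN) or high nutrition (HN). Members were chosen by name and not by their level, by matching the accession of each array probe to a gene symbol. Of the 34 genes, 33 had at least 1 probe and 32 gave a value, among 19554 genes of the whole array with a value. These genes had 74 of the 43652 probes analysed, and 70 of the 74 were used.

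Each group was represented by 1 single-colour Agilent Bovine (v2) array that held a pool of total RNA from 4 fetuses. The HN dams were fed 120% and the LN dams 60% of the nutritional requirement through gestation, and the fetal LT muscle was taken at 8.5 months after conception. Per the study's methods, the HN pool combined the heaviest fetuses of its group and the LN pool the lightest, and all dams were inseminated with male-sorted semen of the same sire. Diet and selection on body weight (BW) therefore cannot be told apart, both arrays lay on the same slide, and with 1 array per group there was no replicate, no test and no p-value. Pooling leaves the spread between fetuses unmeasured. In a whole-muscle extract, fewer cells of a type and less RNA per cell cannot be told apart.

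Cells keep reactive oxygen species low with linked systems. The transcription factor NRF2 is held in the cytoplasm by KEAP1 and, when freed, turns on genes for glutathione synthesis, quinone and heme breakdown, and the thioredoxin system. Glutathione and thioredoxin carry reducing power, drawn from NADPH, to peroxidases that break down hydrogen peroxide and lipid peroxides. Skeletal muscle produces superoxide in its mitochondria and relies on superoxide dismutases, catalase, glutathione peroxidases and peroxiredoxins to remove it.

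The signal of a probe is given as log2 of its quantile-normalized intensity on the HN and then the LN array, and the difference is LN minus HN, so that a positive value means a higher signal in the LN pool. Probes of the same gene were averaged. A log2 difference of 0.32, at which the signal of a pool is 25% above that of the other, was the threshold for calling a gene higher or lower. For scale, probes printed at several spots gave log2 differences that varied between spots with an SD of 0.085 (42 probes), and different probes of the same gene varied with a median SD of 0.099. The scanner software's own error estimate for the log2 difference of the 70 member probes used was between 0.204 and 0.412, with a median of 0.204. It was thus nearly the same for most probes and is not a spread measured between spots. It concerns the spot measurement alone.

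As a group, the antioxidant and glutathione genes were balanced between the pools. The difference was above 0 for 15 genes and below 0 for 17, with a median of -0.01 and a range from -0.45 to 0.70. The median over all 19554 genes was -0.0033. *GPX3* and *GSS* were higher in LN past the threshold, and *PRDX2* and *TXN* were lower, which is 6.25% of the 32 genes in each direction. Over all genes with a value 8.85% were higher and 9.11% lower past the threshold, and over the 9654 genes with a symbol and all detected probes measured on both arrays 6.96% were higher and 6.85% lower. No gene of the group passed 2-fold, as 0.997% of all genes did. The share of members past the threshold was therefore no larger than over the array. All 70 probes used were well above background on both arrays, so that no gene entered through the pool in which it was brighter. The genes that only just passed the threshold were *GSS* at 0.33 and *TXN* at -0.33, and those that only just missed it were *PRDX3* at 0.30 and *SOD3* at -0.30.

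**Figure D1:**
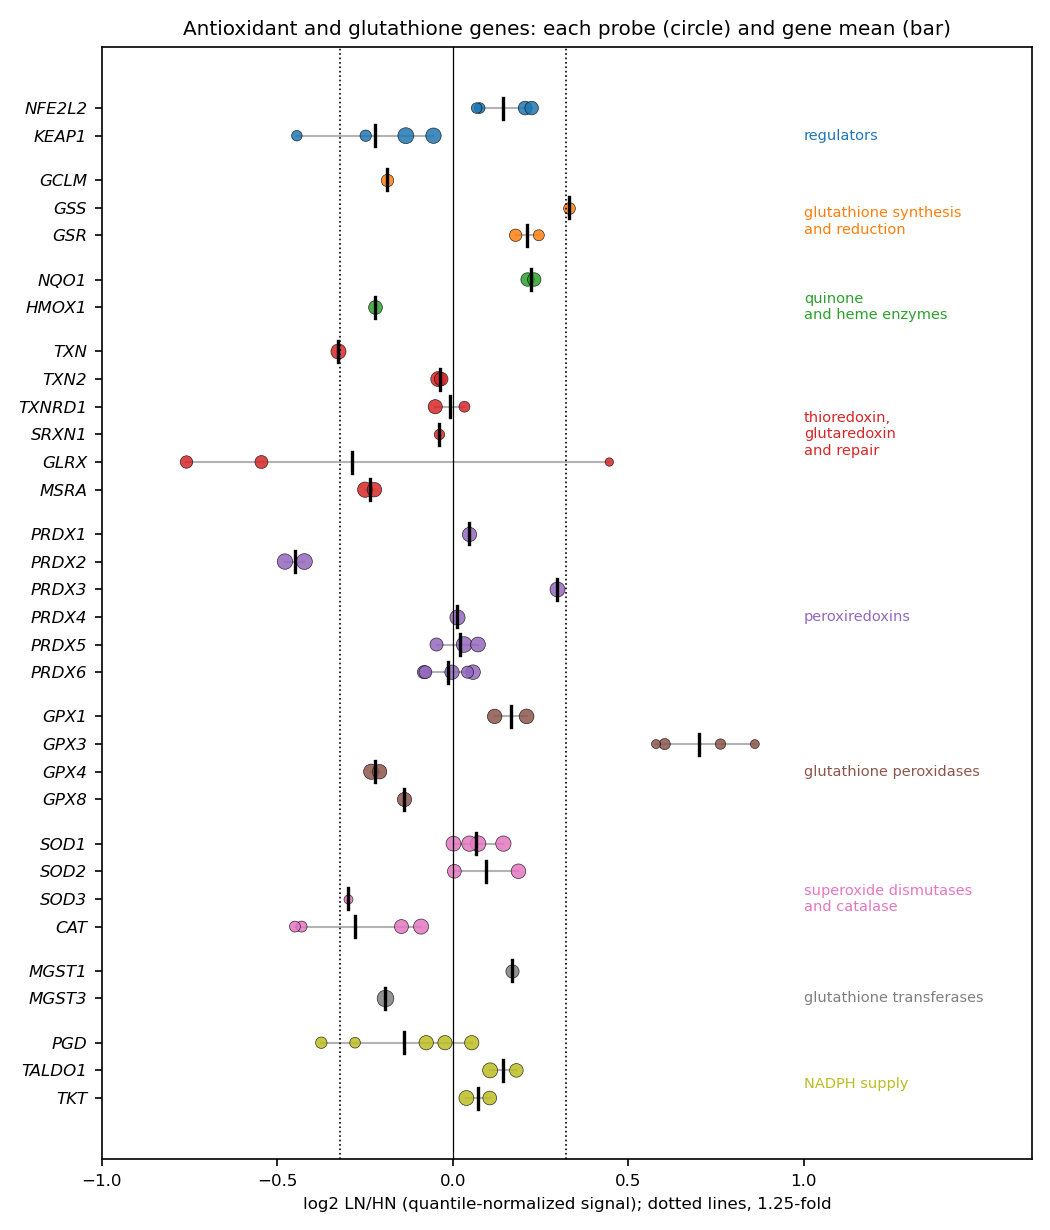
Log2 difference LN minus HN of the 32 antioxidant and glutathione genes with a value, in role groups. Circles are single probes, larger where brighter, bars are gene means and dotted lines mark the threshold. All 4 probes of GPX3 and both of PRDX2 lie outside the dotted lines, and the 3 probes of GLRX lie on both sides of 0.

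The regulators differed little. *NFE2L2*, which encodes NRF2, had a signal of 7.55 in HN and 7.70 in LN, a difference of 0.14, and its 4 probes gave differences from 0.07 to 0.22. *KEAP1*, which holds NRF2 for degradation, had 9.65 and 9.43, a difference of -0.22. All 4 probes of *KEAP1* were lower in LN, but the brightest pair differed by -0.13 and -0.06 and the dimmest pair by -0.25 and -0.44. Thus the activator was slightly higher and its inhibitor slightly lower in LN, both short of the threshold. Of 15 members listed as known NRF2 targets, 13 had a value, 6 above and 7 below 0, with a median of -0.01. The 19 genes with a value outside that list had a median of -0.04.

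Among the genes for making and reducing glutathione, *GSS* alone passed the threshold, and not under every setting. *GCLC*, the catalytic subunit of the rate-limiting enzyme of glutathione synthesis, had 1 probe that was not well above background on either array, and no value is given. *GCLM*, its modifier subunit, had a signal of 8.02 in HN and 7.83 in LN, a difference of -0.19. *GSS*, the synthetase of the last step, had 6.87 and 7.20, a difference of 0.33, or 1.26-fold higher in LN. This value rests on 1 of 2 probes, because the other was not well above background on either array. *GSR*, which returns oxidized glutathione to its reduced form, had 6.83 and 7.04, a difference of 0.21 that its 2 probes gave as 0.18 and 0.25. *GSS* fell short of the threshold with the 75th percentile scaling (0.30), the normexp correction (0.22) and the authors' normalized values (0.31), and was -0.13 without a filter on dim probes.

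The classic NRF2 target enzymes *NQO1* and *HMOX1* differed by nearly the same size in opposite directions. *NQO1*, which reduces quinones, had a signal of 9.33 in HN and 9.56 in LN, and its 2 probes gave differences of 0.21 and 0.23. *HMOX1*, which breaks down heme and is abundant in macrophages, had 9.98 and 9.76, a difference of -0.22 on 1 probe. Some macrophage markers were also lower in LN, and others were nearly level. Of 7 such genes 6 had a value, 5 of them below 0, and *CD68* (-0.35) and *C1QB* (-0.45) were past the threshold. The count past it was 1 with the normexp correction (list median -0.09 in place of -0.18) and 1 with the brightest probe of each gene. *C1QA* was at -0.29, whereas *CSF1R* (-0.06), *CD14* (-0.05) and *CD163* (0.02) were within the spread between probes of a gene. The summed signal of the macrophage genes was 4349.9 in HN and 3510.2 in LN, a ratio of 0.807, and the part of these cells in the *HMOX1* difference was not tested.

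All 6 genes of the thioredoxin, glutaredoxin and methionine repair group had values below 0, with a median of -0.14, although *TXNRD1* was between 0.01 and 0.02 with cyclic loess, without normalization and with the normexp background correction. *TXN*, cytosolic thioredoxin, had a signal of 12.29 in HN and 11.97 in LN on its single probe, a difference of -0.33, just past the threshold. Its mitochondrial counterpart *TXN2* had 10.98 and 10.95, and the difference of -0.04 was within the spread between probes of a gene. *TXNRD1*, the reductase that recharges thioredoxin, had 8.23 and 8.22, and its 2 probes lay on either side of 0 at -0.05 and 0.03. The carrier was therefore lower in LN while the signal of its reductase differed by only -0.01. *SRXN1*, which repairs over-oxidized peroxiredoxins, had 5.25 and 5.21, a difference of -0.04 on 1 of 2 probes. *MSRA*, which reduces oxidized methionine in proteins, had 11.88 and 11.65, and both its probes were lower, by -0.25 and -0.22.

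*GLRX*, a glutaredoxin that removes glutathione from protein thiols, had the widest disagreement between probes of all members, a range of 1.2 on the log2 scale. The brightest probe had 8.97 in HN and 8.43 in LN, a difference of -0.55, and the next had 8.32 and 7.56, a difference of -0.76. The third, much dimmer probe had 2.81 and 3.25, a difference of 0.45. The gene mean was -0.29, short of the threshold, although both bright probes were past it. With the brightest probe alone or with the median of the probes the value of *GLRX* was -0.55.

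The peroxiredoxins, which reduce hydrogen peroxide with electrons from thioredoxin, differed among themselves. *PRDX2*, the cytosolic form that is abundant in red cells, had a mean signal of 13.26 in HN and 12.81 in LN, a difference of -0.45, or 1.37-fold lower. Its 2 probes had 13.60 and 13.18 (-0.42), and 12.91 and 12.43 (-0.48), so that both were lower by a similar size. In the interval of signal from 13 to 14, 5.94% of 303 genes measured on both arrays were past the threshold in either direction, and the central 95% of their differences ran from -0.34 to 0.34. *PRDX2* lay outside that range, and it was 905th from the lowest of the 19554 genes. *PRDX3*, the mitochondrial form, had 11.81 and 12.11 on 1 probe, a difference of 0.30, or 1.23-fold higher in LN. The signals of *PRDX1*, a further cytosolic form, were 10.81 and 10.86, a difference of 0.05. *PRDX4*, the form of the endoplasmic reticulum, had 12.28 and 12.30, a difference of 0.01. *PRDX5*, found in mitochondria and peroxisomes, had 11.21 and 11.23 over 3 probes between -0.05 and 0.07. *PRDX6*, which uses glutathione, had 9.42 and 9.41 over 5 probes between -0.08 and 0.06. The 4 forms other than *PRDX2* and *PRDX3* therefore differed by no more than 0.05.

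**Figure D2:**
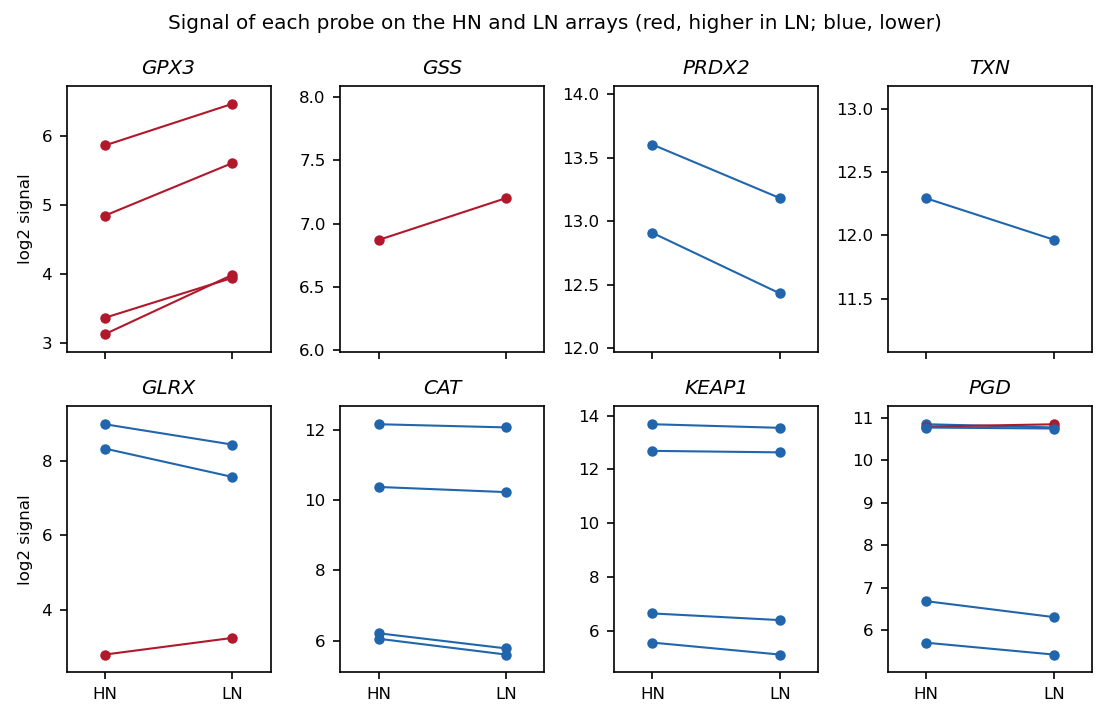
Log2 signal (vertical axes, different ranges) on the HN and LN arrays of every probe used of 8 genes; each line is 1 probe. The 4 probes of GPX3 are higher and both probes of PRDX2 lower in LN, while CAT, KEAP1 and PGD have bright probes that are nearly level and dim probes that are lower.

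Because *PRDX2*, *CAT* and *GPX1* are also abundant in red cells, erythroid genes were examined beside them. Of 7 listed, 5 had a value, none past the threshold, and their summed signal was 17176.5 in HN and 17136.5 in LN, a ratio of 0.998. *HBA* (hemoglobin alpha) differed by 0.00, *HBB* (hemoglobin beta) by -0.17, *AHSP* (the hemoglobin-stabilizing protein) by -0.16 and *ALAS2* (erythroid heme synthesis) by -0.03. *SLC4A1*, the red cell anion exchanger, was not well above background on either array. The sum is mostly the signal of *HBA*, and 4 of the 5 genes were below 0, with a median of -0.06. That median was -0.15 with 5 of 5 below 0 under the 75th percentile scaling, and -0.12 without normalization. It was -0.02 with cyclic loess and -0.02 with the normexp correction. The part of red cells in the *PRDX2* difference was not tested.

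*GPX3*, the secreted glutathione peroxidase, had the largest difference of the 32 genes. Its mean signal was 4.30 in HN and 5.00 in LN, a difference of 0.70, or 1.63-fold higher. The 4 probes had 5.86 and 6.47 (0.60), 4.84 and 5.61 (0.76), 3.36 and 3.94 (0.58), and 3.13 and 3.99 (0.86). Every probe of *GPX3* was past the threshold, but all were dim, and between signals of 4 and 5 as many as 28.7% of 1947 genes were past the threshold in either direction, with a central 95% from -0.66 to 0.64. *GPX3* was 412th from the highest of all genes. With a background correction that damps dim probes (normexp, offset 50) its difference was 0.24, below the threshold. *GPX3* is made by several tissues, fat and connective tissue among them. The fibroblast genes, 5 of 5 with a value, were above 0 in LN under every setting run, 3 of them past the threshold (1 to 3 across settings), and their summed signal had a ratio of 1.21. The adipocyte genes had a ratio of 1.24 on 3 of 5 genes, with *FABP4* (0.39) and *CIDEC* (0.22) above and *PLIN1* (-0.14) below 0 and *LEP* not above background, and the part of either in the *GPX3* difference was not tested.

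The other glutathione peroxidases were closer to level. *GPX1*, the abundant cytosolic form, had a signal of 11.25 in HN and 11.42 in LN, and its 2 probes gave 0.12 and 0.21. *GPX4*, which reduces lipid peroxides in membranes, had 11.77 and 11.55, and both of its probes were lower, by -0.23 and -0.21. The endoplasmic reticulum form *GPX8* had 10.82 and 10.68, a difference of -0.14 on 1 probe. *GPX1* and *GPX4* therefore differed in opposite directions by more than the spread between their own probes, neither past the threshold.

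The superoxide dismutases *SOD1* and *SOD2* differed little. *SOD1*, the cytosolic copper and zinc enzyme, had a signal of 12.38 in HN and 12.45 in LN, with 4 probes between 0.00 and 0.14. *SOD2*, the mitochondrial manganese enzyme, had 10.56 and 10.65, with probes at 0.00 and 0.19. *SOD3*, the extracellular form, had 3.75 and 3.45 on 1 of 2 probes, a difference of -0.30. That signal was near the dim end, where 40.4% of genes between 3 and 4 were past the threshold, and the value of *SOD3* ranged from -0.47 to -0.08 across 12 other settings of the processing. *CAT*, catalase, which splits hydrogen peroxide in peroxisomes, had a mean of 8.70 and 8.42, a difference of -0.28. Its bright probes had 12.16 and 12.07 (-0.09), and 10.38 and 10.23 (-0.15), whereas its dim probes had 6.21 and 5.78 (-0.43), and 6.06 and 5.61 (-0.45). All 4 probes of *CAT* were lower in LN, but the size depended on the probe, and with the brightest alone it was -0.09.

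Of the glutathione transferases, *GSTP1* had no matched probe. *MGST1*, a membrane-bound transferase of liver and other tissues, had a signal of 8.99 in HN and 9.16 in LN, a difference of 0.17 on 1 probe. *MGST3*, another membrane-bound member, had 15.18 and 14.98, a difference of -0.19 on 1 probe. Neither passed the threshold. The range of genes between signals of 15 and 16 was narrow, with a central 95% from -0.28 to 0.12, and *MGST3* lay inside it.

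NADPH for both glutathione and thioredoxin comes in part from the pentose phosphate pathway. *PGD*, which produces NADPH in its oxidative branch, had a signal of 8.96 in HN and 8.82 in LN, a difference of -0.14. The 3 bright probes of *PGD* lay at -0.08, -0.02 and 0.05, and the 2 dim probes at -0.28 and -0.37, so that the mean was set by the dim probes. *TALDO1*, transaldolase of the non-oxidative branch, had 10.74 and 10.88, with probes at 0.11 and 0.18. *TKT*, transketolase, had 10.82 and 10.90, with probes at 0.04 and 0.11. No gene of this branch passed the threshold.

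By compartment, the mitochondrial members *TXN2*, *PRDX3* and *SOD2* lay at -0.04, 0.30 and 0.10, with *PRDX5*, shared with peroxisomes, at 0.02, and 6 members of the secretory path, the endoplasmic reticulum or the outside of cells had a median of -0.06 with the extremes at *SOD3* and *GPX3*.

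**Figure D3:**
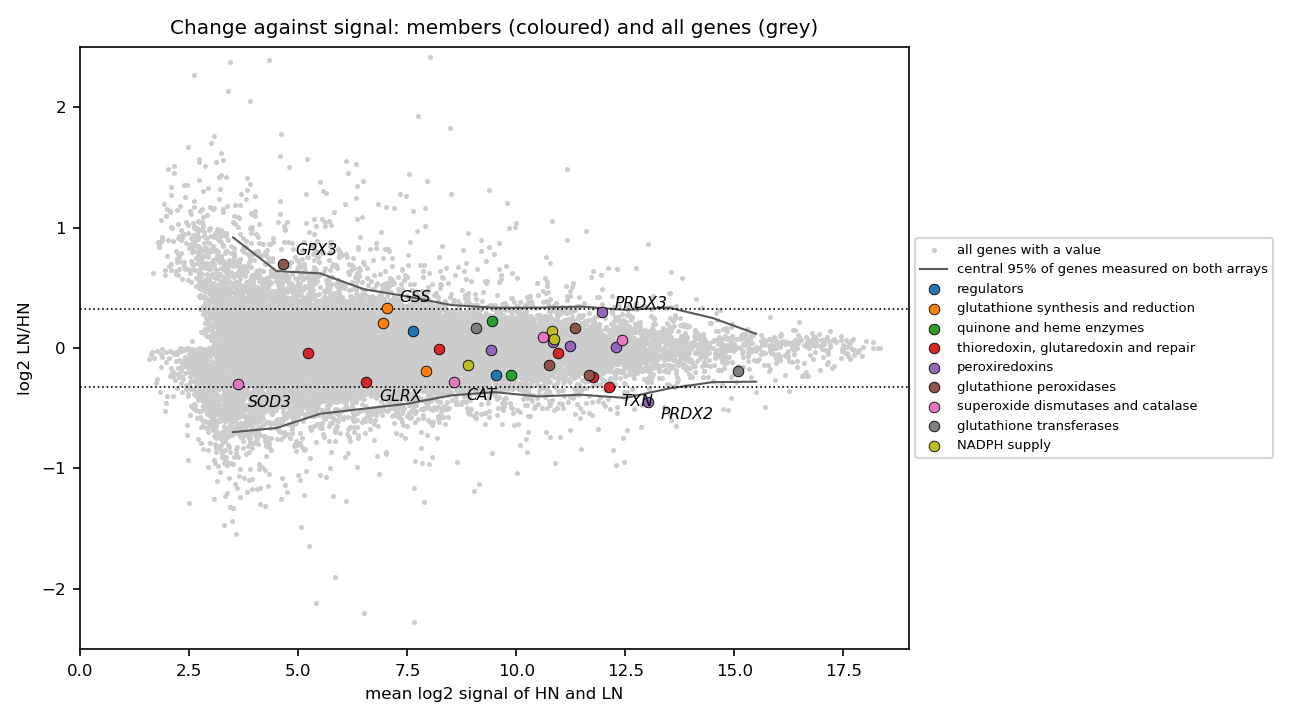
Log2 difference LN minus HN against the mean log2 signal of both arrays, for the members (coloured by role) and all genes with a value (grey); 3 genes lie beyond the axis. Dotted lines mark the threshold and grey lines the central 95% of genes measured on both arrays: PRDX2 lies below the lower grey line and GPX3 just above the upper.

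Agreement between probes of a gene gave the only internal check of single values. Of 20 members with 2 to 5 probes used, all probes had the same sign in 15 (75%), against 58.6% of 7139 genes with more than 1 probe. The median SD between probes was 0.060 for the members and 0.099 for all such genes. The remaining 12 members, *TXN*, *GSS*, *PRDX3* and *HMOX1* among them, rest on 1 probe each. Probes of a gene share the RNA pools and the arrays, so this agreement says nothing of the spread between fetuses.

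The calls were followed across 12 other settings of normalization, background correction, probe filter and probe summary. *PRDX2* was lower past the threshold in 12 of 12 settings, between -0.45 and -0.42. *GPX3* was higher past it in 11 of 12, between 0.24 and 0.76, and *TXN* lower in 10 of 12, between -0.35 and -0.29. *GSS* was past it in 8 of 12. Repeats of the main value fill part of these counts. Settings of probe filter and probe summary cannot change *TXN*, whose single probe was well above background on both arrays. *TXN* fell short of the threshold without normalization (-0.29) and with the authors' normalized values (-0.29). *GSS* moved only with normalization, background correction, the authors' values or no filter on dim probes. *PRDX3* passed the threshold in 1 of 12 settings, *SOD3* in 4 and *GLRX* in 6. Thus, the lower signal of *PRDX2* was the only call of this group present under every setting run, although not every setting could move it. Settings of probe filter cannot change *PRDX2*, whose probes were all well above background on both arrays. The median of its probes equals their mean, and keeping outlier-flagged spots also repeated the main value. *PRDX2* moved only with normalization, background correction, the authors' values or the brightest probe, and stayed between -0.45 and -0.42.

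**Figure D4:**
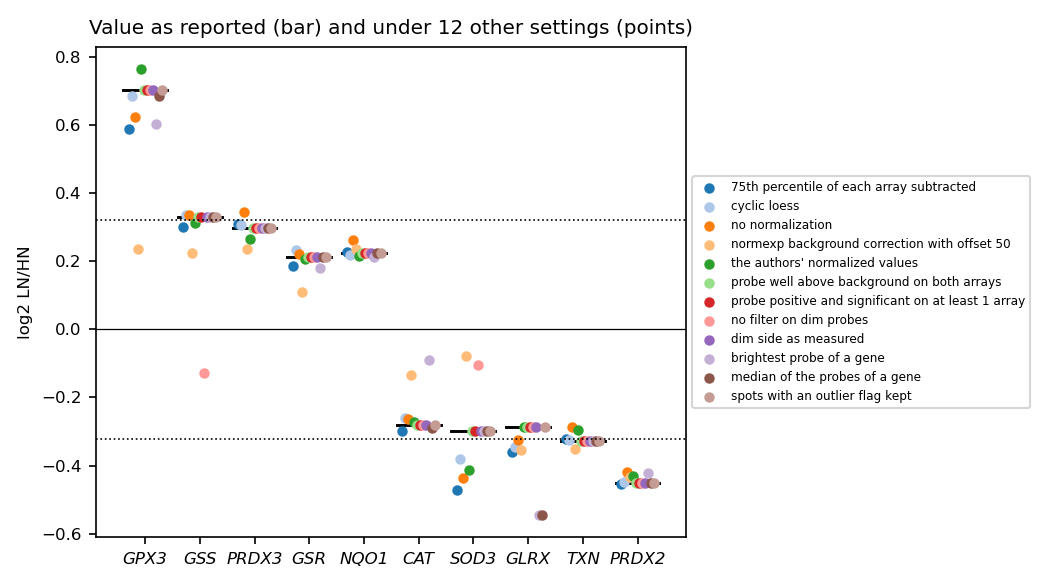
Log2 difference LN minus HN of 10 members as reported (bars) and under 12 other settings (points, coloured by setting); dotted lines mark the threshold. All points of PRDX2 lie below the lower line, while those of GPX3, GSS, PRDX3, SOD3, GLRX and TXN lie on both sides of a line.

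A wider list of 74 other genes of the same pathways was examined with the same rule. Of these, 63 had a value, 29 above and 34 below 0, with a median of -0.01. In LN 10 were higher and 2 lower past the threshold (15.9% and 3.17%), beside 8.85% and 9.11% of all genes. These genes were not tested as a group. In cystine uptake and glutathione turnover 4 of 11 genes with a value were higher and none lower, but *GGT7* passed the filter through LN alone. With probes well above background on both arrays the count was 3 of 10 in this group, and 9 of 62 over the list. With the normexp correction 5 of the 63 genes were higher, 1 of them in this group. The calls over the whole array also fell under that correction, to 319 higher and 386 lower from 1731 and 1781. *SLC3A2*, the heavy chain of the cystine and large neutral amino acid transporters, had a signal of 7.93 in HN and 8.57 in LN, a difference of 0.64, with probes at 0.45 and 0.83. *CHAC1*, which degrades glutathione and is a known target of the amino acid response, had 5.27 and 5.90, a difference of 0.64 on 1 probe. *GGCT*, which breaks down gamma-glutamyl amino acids, had 6.26 and 6.71, a difference of 0.45. *GGT7*, of the gamma-glutamyltransferase family, was not well above background in HN (measured signals 1.54 and 3.32) and was at least 2.07-fold higher in LN. The related *CHAC2* differed by -0.17, *GGT1* by -0.12, *GGT5* by -0.01 and *OPLAH*, which opens the ring of 5-oxoproline, by -0.14. *SLC7A11*, the light chain of the cystine transporter, had no matched probe. Genes of glutathione turnover thus lay on both sides of 0.

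Beside thioredoxin, *GLRX2*, a mitochondrial and nuclear glutaredoxin, had a signal of 5.01 in HN and 5.78 in LN, a difference of 0.78, in the direction opposite to the bright probes of *GLRX*. *SESN2*, a stress-induced sestrin that senses leucine, had 3.64 and 4.45, a difference of 0.81, and both of these genes rest on 1 dim probe. *SESN1* differed by 0.21, *TXNRD2* (mitochondrial thioredoxin reductase) by -0.09 and *TXNIP* (which binds and inhibits thioredoxin) by -0.20. The 3 probes of *TXNIP* ran from -0.39 to -0.03, and a link between *TXNIP* and *TXN* was not tested. Of the regulators of NRF2 measured beside *KEAP1*, *CUL3*, its ubiquitin ligase partner, was at 0.08 and *MAFG*, a DNA-binding partner of NRF2, at -0.06. *SQSTM1*, which captures KEAP1, was at -0.15, but its 3 probes ran from -0.36 to 0.21.

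Of other transferases, *GSTM3* had a signal of 11.03 in HN and 11.53 in LN, a difference of 0.50 with probes at 0.48 and 0.53. *GSTA1* had 7.84 and 7.26, a difference of -0.58 with probes at -0.61 and -0.54. Both belong to families of similar sequence whose members a probe may not separate. *EPHX1*, the microsomal epoxide hydrolase, had 6.89 and 7.42, a difference of 0.53. Of these 3 detoxification genes, *GSTM3* and *EPHX1* were thus higher in LN and *GSTA1* was lower. For NADPH supply, *ME3*, the mitochondrial malic enzyme, had 7.95 and 7.52, a difference of -0.43 on 1 probe, whereas *ME2*, also mitochondrial, differed by 0.22 over 3 probes and the cytosolic *ME1* by 0.13. *RPE*, an epimerase of the pentose phosphate pathway, differed by 0.27. *IDH2* (-0.06) and *NNT* (0.00), mitochondrial sources of NADPH, were level.

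**Figure D5:**
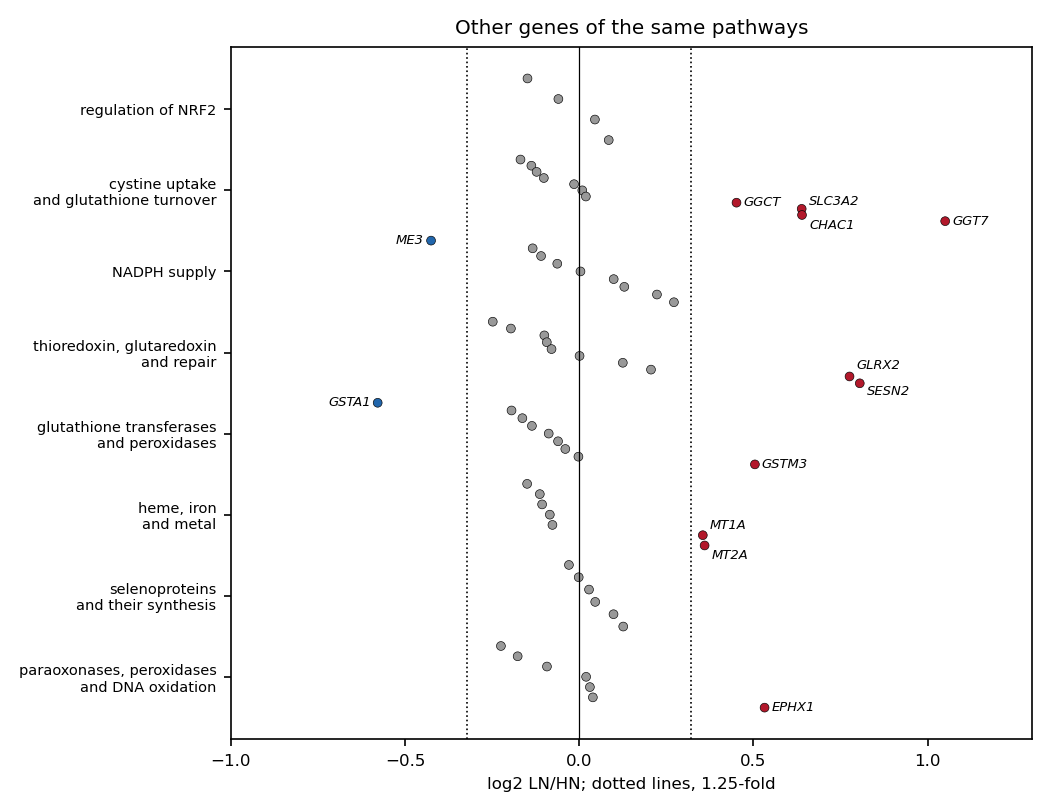
Log2 difference LN minus HN of the 63 other genes of the same pathways with a value, by role; dotted lines mark the threshold. Red points are higher and blue points lower past the threshold: 10 red points, 4 of them in cystine uptake and glutathione turnover, and 2 blue points. GGT7 is a lower limit.

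The labelled tissue was checked with its defining genes. All 10 skeletal muscle genes were measured, with *ACTA1* (skeletal actin) at 17.57 in HN and 17.53 in LN. Of the 10, 8 were below 0 and 1 above (*MYH2*, fast myosin, 0.03), with a median of -0.16, and *MB* (myoglobin) was lower past the threshold at -0.37. With the brightest probe of each gene none was past it and the median was -0.03, and with the authors' normalized values the median was -0.08. *CKM* (muscle creatine kinase) and *MYH7* (slow myosin) both differed by -0.24, and the summed signal had a ratio of 0.953. Most neutrophil genes were higher in LN, 6 of 7 past the threshold, with a summed signal of 1275 in HN and 2226 in LN, a ratio of 1.75. With probes well above background on both arrays the count was 5 of 6, because *MPO* passed the filter through LN alone. *S100A8* was 2.62-fold and *S100A9* 2.37-fold higher, and *MPO*, the neutrophil peroxidase, was not well above background in HN and was at least 8.62-fold higher in LN. *ELANE* of the same list went the other way, with 5.13 in HN and 5.00 in LN, a difference of -0.13. Endothelial genes had a ratio of 0.829, with 5 of 6 below 0 and a median of -0.24. None of the 6 was past the threshold, with *PECAM1* just short of it at -0.319, but 1 was past it with the brightest probe of each gene. The gene above 0, *VWF* (0.02), includes 1 probe that was well above background on 1 array alone. The part of any of these cell types in the antioxidant values was not tested. On both arrays 43803 spots that were not controls were read, 74.5% of them well above background in HN and 70.9% in LN, and none was saturated.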

How the data were processed

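Total RNA pools of fetal LT muscle were hybridized to 2 arrays, 1 per group. The authors extracted spots with Agilent Feature Extraction 11.0.1.1 and deposited background-corrected intensities per spot with flags and errors, not normalized between arrays. The authors also deposited normalized values, which their range places on a log2 scale and which, per the methods, came from the quantile method in GeneSpring GX. Here log2 intensities were quantile-normalized with limma 3.58.1 in R 4.3.3. Control spots and outlier-flagged spots were removed, spots of a probe were averaged, and a probe was kept where either array marked it well above background, a dim side being set to the lowest signal well above background on that array or its own value if higher. A gene is the mean of its probes, and such dim sides make a lower limit. Accessions were matched to symbols through the RefSeq gene table of ARS-UCD2.0. Array coordinates refer to another assembly and none are given.

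Groups came from the sample labels. Signals were compared without a test (Python 3.11.15, numpy 2.4.6, pandas 2.3.3, matplotlib 3.10.9), since 1 array per group limits the precision. The 12 alternatives covered normalization, background, filters and probe summaries, and normexp used the median pixel signal because no mean signal column was used. The code was tested on simulated data. Named genes were every member, genes of the wider list past the threshold or beside a member's role, and defining markers of cell types. Members and lists were chosen with earlier results of these data known. Of the wider list, 1 gene is left out of all counts and is not reported here.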

Additional observations from a re-analysis of the deposited data

How the results depend on the processing

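The 4 main results were computed under 12 alternatives. The median over the 32 genes moved by less than the spread between probes in all of them. The count higher in LN past the threshold (a log2 difference of 0.32), 2 as reported, was 1 with each array's 75th percentile subtracted, 0 with the normexp correction and 1 with the authors' normalized values, but 3 without normalization, where *PRDX3* joined, and 3 with the positive and significant filter, where *GCLC* joined. The count lower, 2 as reported, was 4 with the 75th percentile and 4 with cyclic loess, where *GLRX* and *SOD3* joined. It was 3 without normalization, where these 2 joined and *TXN* fell out. With the normexp correction, the brightest probe or the median of the probes it was 3 in each case, where *GLRX* joined. The authors' normalized values gave 2, with *SOD3* in place of *TXN*. The count past 2-fold, 0 as reported, was 1 with probes kept when positive and significant and 1 without a filter, in both cases *GCLC* at 1.21, which was not well above background on either array. *GSS* was -0.13 without a filter, where its undetected second probe enters the mean. Of the values of single genes, 367 moved by less than 0.099, and these include settings that could only repeat the main value. *GSS* was the only one past the threshold that turned sign, and *PGD* (0.05 with the brightest probe), *PRDX6* and *TXNRD1*, all short of it, also crossed 0.

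Over the whole array 1731 genes were higher and 1781 lower past the threshold (49.3% higher), against 1191 and 2693 (30.7%) with the 75th percentile and 1462 and 2260 (39.3%) without normalization. The normexp correction gave 319 and 386, the positive and significant filter 2744 and 2622, and no filter 3251 and 3592. The cause of these moves was not tested. No paired analysis was possible because each group has 1 array, and no array could be left out. Depth on an array is signal over background, which limits *GPX3*, *SOD3*, *SRXN1* and *GCLC*.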

Other observations

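Of the genes of heme, iron and metal handling, outside the 34 genes, 7 had a value, 2 above and 5 below 0. The count higher past the threshold was 2, but 1 with the normexp correction and 1 with the brightest probe of each gene. *MT1A* and *MT2A*, metallothioneins that bind zinc and copper, had signals of 10.05 and 10.18 in HN and 10.40 and 10.54 in LN, differences of 0.35 and 0.36. The probes of these near-identical genes may not separate them, so they are not independent. The ferritin chains *FTH1* (-0.08) and *FTL* (-0.15), which store iron, and the enzymes that follow heme oxygenase, *BLVRA* (-0.08) and *BLVRB* (-0.11), had values below 0 and short of the threshold, as did *HMOX2* (-0.11), the constitutive heme oxygenase.

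Of the selenoproteins of the wider list and the genes for making them, which leave out the glutathione peroxidases and thioredoxin reductases, none of 6 with a value was past the threshold. *SELENOW*, a selenoprotein of muscle, differed by 0.10, *SELENOP*, the plasma carrier of selenium, by 0.03 over 8 probes, and *SELENON*, whose loss causes muscle disease, by -0.03. *SEPHS2*, which makes the selenium donor, differed by 0.00. *PARK7* (0.02), *PON2* (0.03) and *ADH5* (0.04), further genes of peroxide and aldehyde defence, were near 0, while *NQO2* (-0.22), *CBR1* (-0.18) and *AKR1B1* (-0.09), reductases of quinones and carbonyls, were below 0 and short of the threshold.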
